A study of Homo sapiens with 32 samples.

Results

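The 9 genes described here make or use iron-sulfur clusters and heme: NFS1, ISCU, GLRX5, ISCA1 and ISCA2 of the mitochondrial iron-sulfur assembly line, ALAS1, ALAD and FECH of heme synthesis, and HMOX1, which breaks heme down. They were chosen by name. ISCA1 and ALAD are among them because the study names both for m6A that differs with SETD2 loss in 786-O, from the same libraries, so their 786-O values by SETD2 status are a description and no independent evidence. A peak was counted for a gene when it overlapped the RefSeq gene body by at least 1 bp. They are 9 of 20037 protein-coding genes, and 79 of 474004 m6A peaks overlapped them. N6-methyladenosine (m6A) was mapped by methylated RNA immunoprecipitation sequencing (MeRIP-seq), in which RNA fragments are pulled down with an antibody against m6A (IP) and compared with the unselected RNA (Input). The study asked how loss of SETD2, the enzyme that trimethylates histone H3 at lysine 36, changes m6A, in the clear cell renal cell carcinoma (ccRCC) line 786-O and in RPTEC, an hTERT-immortalized renal proximal tubule epithelial line used as a surrogate for normal kidney. Each cell line was taken in 4 forms with 2 IP libraries each: the unedited WT parent, the CRISPR/Cas9 knockout clones SETD2KO-1 and SETD2KO-2, and SETD2KO-1R, a clonal line made from SETD2KO-1 that expresses a full-length tagged SETD2 transgene. The WT and SETD2KO-1R forms are grouped as SETD2-expressing, which gives 4 SETD2KO and 4 SETD2-expressing libraries per cell line and 16 in all, none of them with a further treatment. Every knockout is 1 clone, so clone and knockout cannot be told apart within a line. Nothing in the labels says that the replicates were separate cultures, so p-values measure only the spread between these libraries.

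Iron-sulfur clusters are built in mitochondria from iron and from sulfur that NFS1 takes from cysteine. They are assembled on the scaffold ISCU, handed on by GLRX5, and converted into larger clusters with the help of ISCA1 and ISCA2. Heme synthesis starts with ALAS1, continues in the cytosol with ALAD, which joins aminolevulinate into porphobilinogen, and ends with FECH, an iron-sulfur enzyme that puts iron into protoporphyrin. m6A is written on adenosines in a short consensus sequence and lies most often near stop codons and in 3' untranslated regions of mRNA.

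The lists held 19249 to 39670 peaks per library. Their scores have no stated scale, so a peak's strength is given only as its percentile within its own list, where the highest score is near 100 and tied peaks share a rank. The lists carry neither read counts nor strand, so the depth behind a peak is unknown and a peak that was not called does not show that m6A was absent. In these bulk libraries, fewer cells with a modified transcript, less modification per transcript and less RNA per cell cannot be told apart. The renal lineage genes PAX8 and PAX2 had a peak in all 8 libraries of both cell lines, whereas the 6 proximal tubule markers were mixed. LRP2, AQP1 and SLC34A1 had no peak in either line, CUBN had one in 1 786-O library, ANPEP in 2 786-O and 8 RPTEC libraries, and GGT1 in all 8 of both. Of 5 markers of other cell types only COL1A1 had peaks, in 1 786-O and 6 RPTEC libraries. SETD2 itself had a peak in all 4 SETD2KO and all 4 SETD2-expressing libraries of each cell line, which does not check the knockout, since an edited gene can still be transcribed.

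All 9 genes had at least 1 peak in at least 1 library, but none had one in all 16, whereas 4626 protein-coding genes (23.1%) did. The median over the 9 genes was 8 peaks in the 16 libraries together, against 21 over the 13420 protein-coding genes with a peak. The 9 genes were also shorter, with a median gene length of 14973 bp against 31372 bp. ISCA1 was called in 12 of 16 libraries and GLRX5 in 14, 7 of them in each cell line. NFS1 was called in 7 786-O and 3 RPTEC libraries, ALAD in 6 and 3, and ISCA2 in 4 and 3. HMOX1 was called in 3 libraries, FECH in 2, and ISCU and ALAS1 in 1 each.

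**Figure D1:**
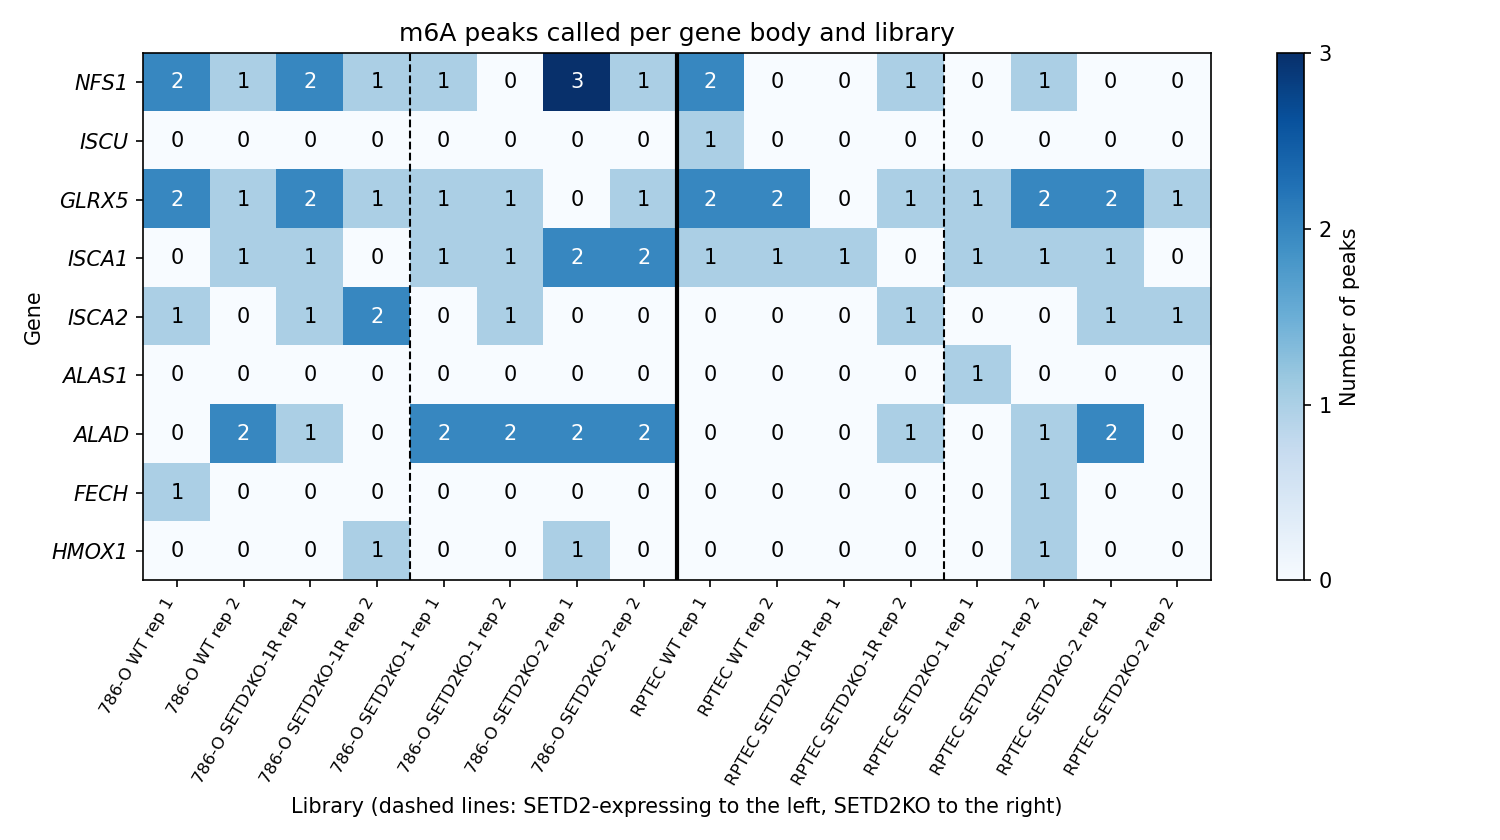
Number of m6A peaks overlapping each of the 9 gene bodies (rows) in each of the 16 IP libraries (columns), 786-O to the left of the thick line and RPTEC to the right, SETD2-expressing to the left of each dashed line and SETD2KO to the right. No gene is called in every column: GLRX5 lacks a peak in 1 library of each cell line, ALAD has 2 peaks in each 786-O SETD2KO library, and ISCU and ALAS1 have 1 peak each in a single RPTEC library.

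The 79 peaks fell into 22 regions once overlapping peaks of all 16 libraries were merged. Of these regions, 9 (40.9%) were called in 1 library, against 35.6% of 82676 regions in protein-coding genes. Another 3 (13.6%) were called in at least 8 libraries, against 22.7% of all such regions, and held 34 of the 79 peaks. These 3 lay near the annotated ends of GLRX5, ISCA1 and ALAD. Among the 8 of these genes whose strand was given, 42 of 67 summits in the gene body (62.7%) lay within 2000 bp of the gene end, against 13.0% over all protein-coding genes. Among protein-coding genes in the length range of these genes the share was 21.6%. Within 500 bp of the gene start lay 5 of the summits (7.46%), against 5.57% over all protein-coding genes and 7.72% over those in the same length range. The gene table used here gives gene bodies without exons, so exons, introns and untranslated regions were not assigned.

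GLRX5, the glutaredoxin that passes new clusters from the scaffold to the carriers, had the most often called region of the set. The gene lies on chromosome 14 of GRCh38 from 95535050 to 95544714 on the plus strand. A region close to its end, chr14:95543681-95544106, was called in 14 libraries, and its 14 summits lay 870 to 915 bp before the gene end. They spanned 45 bp, against a median of 225 bp over 1108 regions in protein-coding genes that were also called in 14 libraries. The peak ranked high in each list that called it, from percentile 81.9 in RPTEC SETD2KO-2 replicate 2 to 97.2 in RPTEC WT replicate 2. The 2 libraries without it were 786-O SETD2KO-2 replicate 1, which had the longest of the 16 lists, and RPTEC SETD2KO-1R replicate 1.

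A second GLRX5 region, chr14:95534885-95535240, straddled the annotated start and was called in 6 libraries, always at percentile 94.0 or above and at most 99.0. It was called in 786-O WT replicate 1 and 786-O SETD2KO-1R replicate 1, in both RPTEC WT libraries, and in RPTEC SETD2KO-1 replicate 2 and RPTEC SETD2KO-2 replicate 1. None of the 4 786-O SETD2KO libraries called it, and how often other regions had such calls was not counted. Its summits lay from 95535008 to 95535051, so that 1 of 6 fell inside the annotated gene body. The noncoding gene SNHG10 lies on the minus strand from 95532912 to 95534872, so that its start lies just before the region, and without strand the peaks cannot be assigned to GLRX5 alone. The 100 bases before the annotated start, from RefSeq GRCh38.p14, are shown because most of these summits fall in them. The capitals mark GGACT, a common form of the m6A consensus, which was searched on both strands and found once in this stretch, at 95535011 to 95535015.

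GLRX5 upstream, chr14:95534950-95535049, plus strand: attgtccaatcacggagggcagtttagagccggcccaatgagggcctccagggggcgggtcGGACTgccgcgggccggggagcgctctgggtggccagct

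The adenosine of that motif lies 37 bp before the annotated start. GGACT on either strand occurred in 16.6% of 35116 windows of the 100 bases before a RefSeq gene start, and on the gene strand in 8.99%, so its presence is a description of this window and not a mapped site.

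By library, GLRX5 had 2 and 1 peaks in the 786-O WT replicates, 2 and 1 in SETD2KO-1R, 1 and 1 in SETD2KO-1, and 0 and 1 in SETD2KO-2. The 786-O SETD2KO libraries were thus at 0 or 1 and the SETD2-expressing libraries at 1 or 2, which overlap at 1. The means were 0.75 ± 0.5 and 1.5 ± 0.577 peaks (SD, n = 4 each), a difference within the spread between libraries (two-sided exact permutation test, p = 0.286, Benjamini-Hochberg adjusted p = 1 over 12430 genes). Counted as bases of the gene body covered by peaks, GLRX5 was at 251 ± 168 bp in SETD2KO against 442.5 ± 88.9 bp in the SETD2-expressing group (p = 0.0286 by the exact permutation test, adjusted p = 0.547). The groups did not overlap on that scale. That was so for 1.94% of the 12430 genes with the SETD2-expressing group higher and for 3.28% with SETD2KO higher. The difference did not pass after adjustment, where no gene could pass unless most genes reached the smallest p of 0.0286. Chromosome 14, where GLRX5 and ISCA2 lie, held 2.18% ± 0.0923 of all peaks in the 786-O SETD2KO libraries against 2.55% ± 0.435 in the SETD2-expressing group (p = 0.2 by the exact permutation test). The 2 SETD2KO-1R libraries were the highest, at 2.87% and 2.98%, and the part of this in the GLRX5 and ISCA2 values was not tested. In RPTEC the WT replicates had 2 and 2 peaks, SETD2KO-1R 0 and 1, SETD2KO-1 1 and 2, and SETD2KO-2 2 and 1. There SETD2KO and SETD2-expressing libraries overlapped fully, with means of 1.5 ± 0.577 and 1.25 ± 0.957 (exact permutation test, p = 1). The SETD2KO difference of 786-O minus that of RPTEC was −1 peak and did not pass (exact permutation test, p = 0.286, adjusted p = 1).

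**Figure D2:**
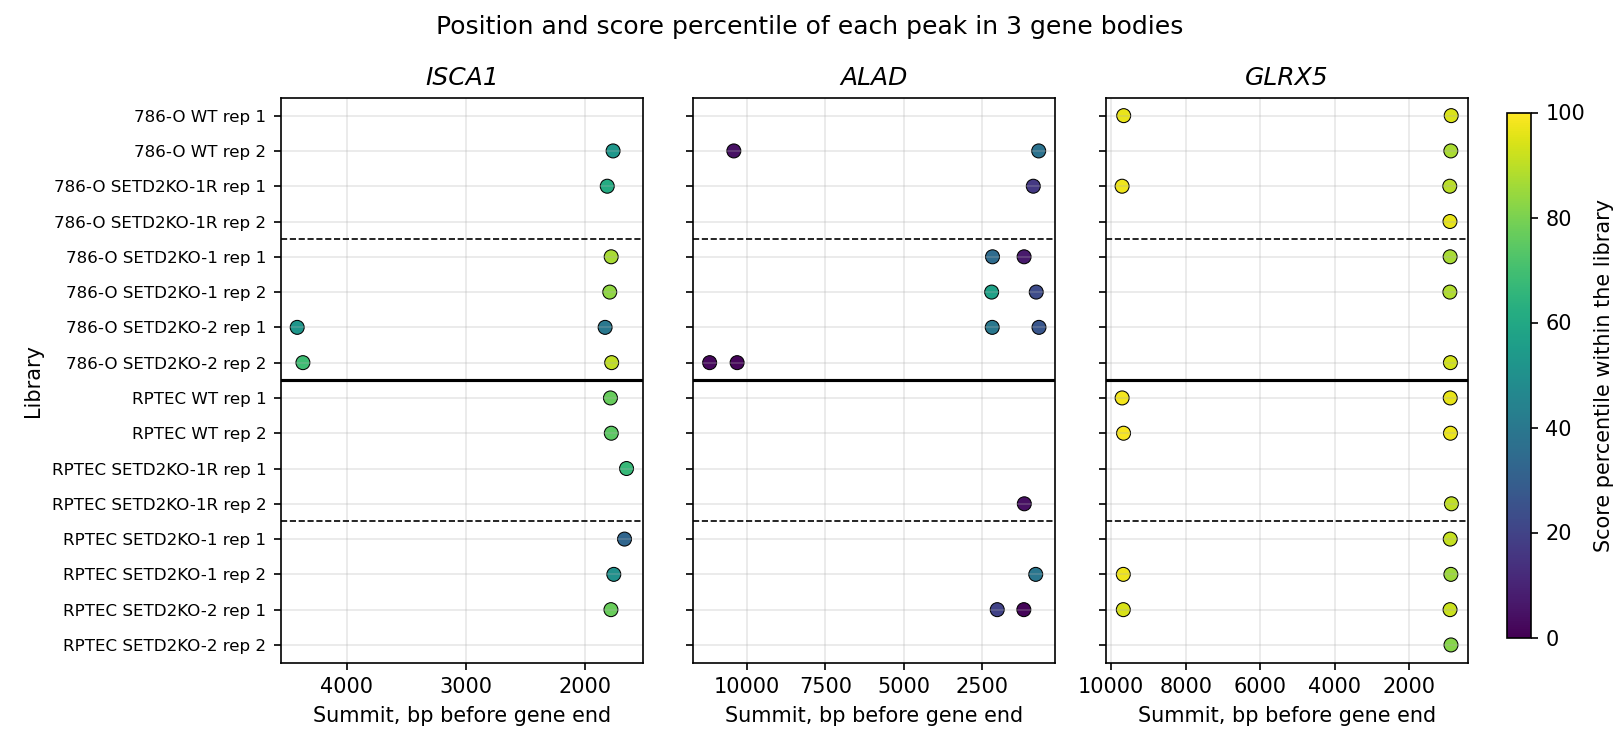
Each point is the summit of 1 called peak in ISCA1, ALAD or GLRX5, placed by its distance before the gene end in bp (x axis, gene end to the right) and by library (y axis), and coloured by its score percentile within that library. The 14 GLRX5 summits near the gene end stack within 45 bp at percentiles of 81.9 to 97.2, the other 6 lie 9663 to 9706 bp before the gene end at percentiles of 94.0 to 99.0, the ISCA1 summits lie 1651 to 1831 bp before the gene end, and a second ISCA1 summit appears in both 786-O SETD2KO-2 libraries.

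ISCA1, a carrier protein of cluster maturation, lies on chromosome 9 of GRCh38 from 86264546 to 86282538 on the minus strand. The noncoding gene LOC124902194 overlaps its body from 86278217 to 86282081, where no ISCA1 peak lay. Its 14 peaks fell into 2 regions. The main one, chr9:86265877-86266441, was called in 12 libraries with summits 1651 to 1831 bp before the gene end. It was called in all 4 SETD2KO and 2 of 4 SETD2-expressing libraries of 786-O, and in 3 of 4 on each side in RPTEC. The other region, chr9:86268731-86269060, was called in both 786-O SETD2KO-2 libraries and in no other library of the series. The share of all regions called in both libraries of a single line alone was not counted, so this is a description.

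In 786-O, ISCA1 had 0 and 1 peaks in the WT replicates and 1 and 0 in SETD2KO-1R. It had 1 and 1 in SETD2KO-1 and 2 and 2 in SETD2KO-2. The SETD2KO libraries were at 1 or 2 and the SETD2-expressing libraries at 0 or 1, so the groups met at 1. The means were 1.5 ± 0.577 and 0.5 ± 0.577 peaks (SD, n = 4 per group; p = 0.171 by the two-sided exact permutation test, adjusted p = 1). The score percentile of the main region was 86.7 and 83.6 in the SETD2KO-1 replicates and 40.0 and 90.6 in the SETD2KO-2 replicates. In the SETD2-expressing libraries that called it, it was 53.0 (WT replicate 2) and 61.1 (SETD2KO-1R replicate 1). The other 2 SETD2-expressing libraries have no peak to rank, so the percentiles were not compared by status.

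In RPTEC the ISCA1 calls did not follow SETD2 status. WT had 1 and 1 peaks, SETD2KO-1R 1 and 0, SETD2KO-1 1 and 1, and SETD2KO-2 1 and 0. Both groups averaged 0.75 ± 0.5 peaks (SD, n = 4 per group; p = 1 by the exact permutation test). The percentile in the 3 SETD2KO libraries with a call was 32.8, 50.3 and 77.3, and in the 3 SETD2-expressing libraries 76.9, 74.8 and 66.9. The SETD2KO difference of 786-O minus that of RPTEC was 1 peak (exact permutation test, p = 0.194, adjusted p = 1). Over all 13420 genes, 0 passed that test after adjustment and 393 (2.93%) had an unadjusted p under 0.05.

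ISCA2, the partner of ISCA1, ran the other way in number of peaks without passing the test. The gene lies on chromosome 14 from 74493765 to 74497106 on the plus strand and is the shortest of the set at 3342 bp. In 786-O it had 1 and 0 peaks in WT and 1 and 2 in SETD2KO-1R, against 0 and 1 in SETD2KO-1 and 0 and 0 in SETD2KO-2. The means were 0.25 ± 0.5 in SETD2KO against 1 ± 0.816 in the SETD2-expressing group (SD, n = 4 per group; p = 0.371 by the exact permutation test, adjusted p = 1). In RPTEC it had a single peak in SETD2KO-1R replicate 2 and in each SETD2KO-2 replicate, and none in the other 5 libraries. Its most often called region, chr14:74494565-74495049, was found in 5 libraries with summits within 27 bp of each other, 916 to 943 bp after the gene start, at percentiles from 15.5 to 85.0.

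NFS1, the cysteine desulfurase that supplies the sulfur, lies on chromosome 20 from 35668052 to 35699352 on the minus strand. In 786-O it had 2 and 1 peaks in WT, 2 and 1 in SETD2KO-1R, 1 and 0 in SETD2KO-1, and 3 and 1 in SETD2KO-2. The SETD2KO libraries spanned 0 to 3 and enclosed the SETD2-expressing range of 1 to 2 (means 1.25 ± 1.26 and 1.5 ± 0.577, SD, n = 4 per group; p = 1 by the exact permutation test). In RPTEC it had 2 peaks in WT replicate 1, 1 in SETD2KO-1R replicate 2, 1 in SETD2KO-1 replicate 2, and none in the other 5 libraries. The 15 peaks fell into 5 regions. One near the gene end, chr20:35669171-35669935, was called in 6 libraries, 5 of them 786-O. One at the gene start, chr20:35699208-35699661, was called in 4 libraries, but none of its summits lay in NFS1: all were 126 to 143 bp before the start, inside ROMO1, which lies on the plus strand from 35699405 to 35700980. Those 4 peaks therefore count for NFS1 only by their overlap.

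ISCU, the assembly scaffold on chromosome 12 from 108561463 to 108569384, had no peak in 786-O and 1 in RPTEC WT replicate 1, at percentile 74.9 and 692 bp before the gene end. Chromosome 12 held 3.77% to 4.11% of the peaks in the 786-O SETD2KO libraries and 4.11% to 4.45% in the SETD2-expressing ones, the groups lying side by side without overlap (p = 0.0286 by the exact permutation test), and ISCU was called in neither group. Of the 13420 protein-coding genes with a peak, 5.19% had no more than 1 over the 16 libraries.

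ALAD, the porphobilinogen-forming enzyme of heme synthesis, had the largest SETD2KO-minus-expressing difference of the 9 genes in 786-O. It lies on chromosome 9 from 113386312 to 113401284 on the minus strand. In 786-O it had 0 and 2 peaks in WT and 1 and 0 in SETD2KO-1R, against 2 in each of the 4 SETD2KO libraries. The SETD2KO libraries all stood at the highest value reached in the SETD2-expressing libraries, that of WT replicate 2, and the groups met there. The means were 2 ± 0 and 0.75 ± 0.957 peaks (SD, n = 4 per group; p = 0.143 by the two-sided exact permutation test, adjusted p = 1). Without WT replicate 2 the difference was 1.67 peaks (exact permutation test, p = 0.0286, the smallest possible with these numbers of libraries, adjusted p = 0.869), and over the 8 libraries left out in turn it ranged from 1 to 1.67. In RPTEC, ALAD had no peak in WT, 0 and 1 in SETD2KO-1R, 0 and 1 in SETD2KO-1, and 2 and 0 in SETD2KO-2. Those means were 0.75 ± 0.957 in SETD2KO against 0.25 ± 0.5 in the SETD2-expressing group (p = 0.714 by the exact permutation test, adjusted p = 1), and the difference between the cell lines' SETD2KO effects was 0.75 peaks (exact permutation test, p = 0.561).

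The equal number of 2 ALAD peaks in the 786-O SETD2KO libraries did not come from the same places. Both SETD2KO-1 replicates and SETD2KO-2 replicate 1 had a peak in chr9:113386937-113387708 and one in chr9:113387951-113388576. SETD2KO-2 replicate 2 had neither, and its 2 peaks lay 10317 and 11195 bp before the gene end at percentiles 1.45 and 2.07. The region nearest the gene end was also called in WT replicate 2, SETD2KO-1R replicate 1 and 3 RPTEC libraries, and its summits spanned 484 bp. The neighbouring region was called in 3 of 4 SETD2KO and 0 of 4 SETD2-expressing libraries of 786-O, and in 1 RPTEC library, SETD2KO-2 replicate 1. Of all 65991 regions in protein-coding genes of 786-O, 4.44% met a looser rule, at least 3 SETD2KO and at most 1 SETD2-expressing libraries. The share with no SETD2-expressing library was not counted for that rule. ALAD peaks ranked low: the region nearest the gene end reached percentile 39.3 at most and 1.28 at least, and the neighbouring region 34.9, 57.3 and 40.0 in the 786-O SETD2KO libraries that called it.

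ISCA1 and ALAD both lie on chromosome 9, and that chromosome held a larger share of all peaks in the 786-O SETD2KO libraries. The share was 6.06% ± 0.135 of the list in SETD2KO and 4.80% ± 0.272 in SETD2-expressing libraries (SD, n = 4 each), and the groups did not overlap (two-sided exact permutation test, p = 0.0286, the smallest that 4 against 4 allow). In RPTEC it was 4.47% ± 0.0576 and 4.45% ± 0.152 (exact permutation test, p = 0.914). Among the chromosomes that hold the 9 genes, chromosome 12 also separated the 786-O groups, with the lower share in SETD2KO. On chromosomes 3, 14, 18, 20 and 22 the 786-O groups overlapped (exact permutation test, p from 0.0571 to 0.2). Shares of the remaining chromosomes were not compared. Of 527 chromosome 9 genes tested in 786-O, 65.5% had a higher mean number of peaks in SETD2KO, with a median difference of 0.5 peaks, against 44.1% of 11903 genes elsewhere, with a median of 0. Among the 26 other tested genes within 5 Mb of ISCA1 the share was 69.2%, and among the 47 within 5 Mb of ALAD it was 76.6%, with a median difference of 0.75 peaks in both sets. The part of this chromosome-wide shift in the ISCA1 and ALAD differences was not tested. Expressed per 1000 peaks of the same list on chromosome 9, the SETD2KO-minus-expressing difference was 0.433 for ISCA1 (exact permutation test, p = 0.171) and 0.536 for ALAD (exact permutation test, p = 0.143).

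**Figure D3:**
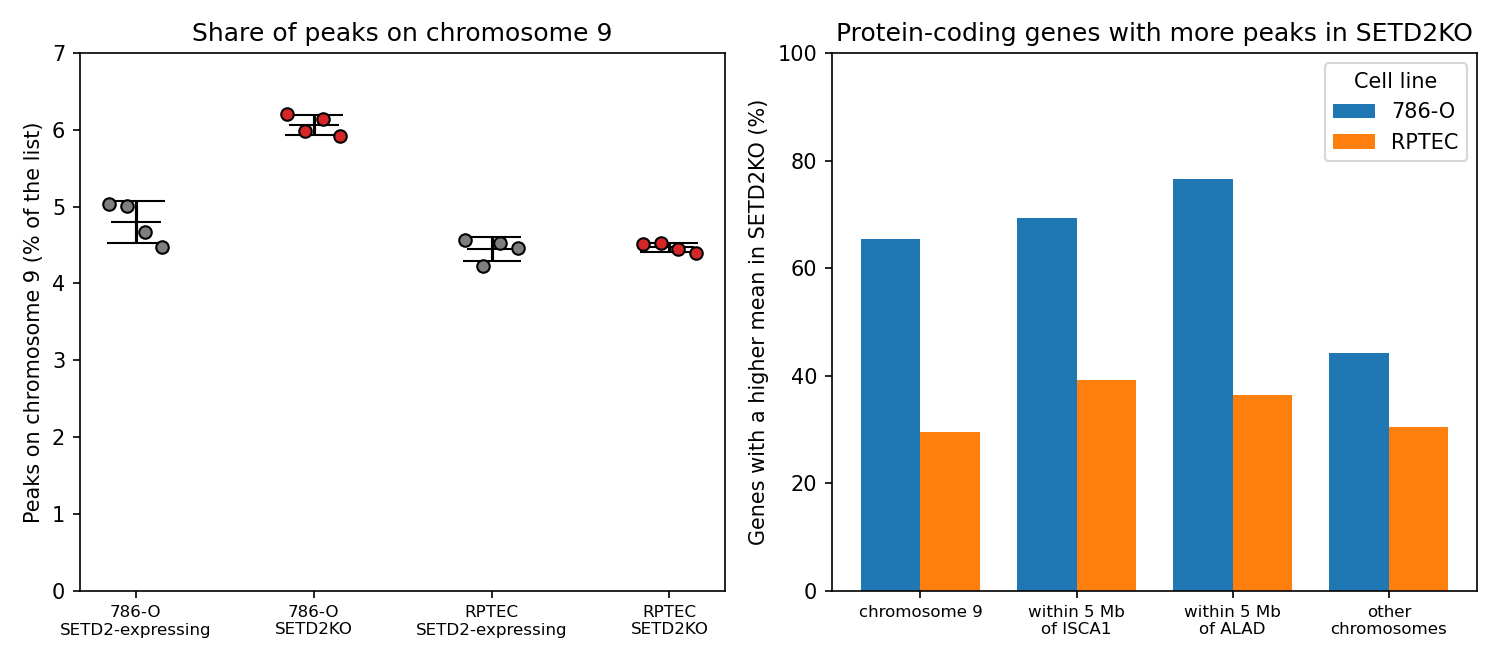
Left, percent of each library's peaks that lie on chromosome 9, 1 point per library, with the group mean and SD (n = 4). Right, percent of tested protein-coding genes with a higher mean number of peaks in SETD2KO than in SETD2-expressing libraries, for chromosome 9, for the genes within 5 Mb of ISCA1 or ALAD, and for the other chromosomes. The 786-O SETD2KO points (5.92% to 6.21%) lie above all other groups, and the 786-O bars reach 65.5% on chromosome 9 against 44.1% elsewhere.

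The remaining heme genes were called in 1 to 3 libraries each, and the exact permutation test gave p = 1 in every comparison by SETD2 status in which they had a peak. ALAS1, which starts heme synthesis, lies on chromosome 3 from 52198083 to 52214327 and had 1 peak, in RPTEC SETD2KO-1 replicate 1 at percentile 3.77. FECH, which ends it, lies on chromosome 18 from 57544377 to 57586702. It had 1 peak in 786-O WT replicate 1 (percentile 36.1) and 1 in RPTEC SETD2KO-1 replicate 2 (percentile 11.0), in the same region 284 to 291 bp after the gene start. HMOX1, the inducible heme oxygenase on chromosome 22 from 35381096 to 35394207, had 1 peak in each of 786-O SETD2KO-1R replicate 2, 786-O SETD2KO-2 replicate 1 and RPTEC SETD2KO-1 replicate 2, in 3 different regions at percentiles 64.0, 57.3 and 89.8.

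Over the 9 genes together, none separated the groups by peak number. In 786-O, 7 were tested: 2 were higher in SETD2KO, 4 lower and 1 equal, with a median difference of −0.25 peaks against 0 over all 12430 genes. The lower value of FECH is a single peak in 1 library. The peak numbers of the SETD2KO and SETD2-expressing groups did not overlap for 0 of the 7, where the background was 1.52% of genes higher in SETD2KO and 0.901% higher in SETD2-expressing libraries. By the exact permutation test, 0 of the 12430 genes passed after adjustment and 301 had an unadjusted p under 0.05. The smallest p that 4 libraries against 4 allow is 0.0286, and the smallest adjusted p was 1. In either cell line, no gene could pass after adjustment unless most of the genes reached that smallest p. In RPTEC, 6 of the 9 were higher in SETD2KO, 2 lower and 1 equal, with a median difference of 0.25 against −0.25 over all 12185 genes. For 3 of these 6, ALAS1, FECH and HMOX1, the difference is a single peak in 1 SETD2KO-1 library, for FECH and HMOX1 the same library. Groups did not overlap for 0 of the 9, against 1.01% of genes higher in SETD2KO and 1.41% higher in SETD2-expressing libraries; by the exact permutation test 0 genes passed after adjustment and 295 had an unadjusted p under 0.05. By region, 0 of 19 regions at these genes in 786-O were called in all SETD2KO and no SETD2-expressing library or the reverse, where the background was 0.28% and 0.152% of 65991 regions. In RPTEC it was 0 of 14 regions, where the background was 0.195% and 0.213% of 59064 regions.

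Between the cell lines, none of the 9 genes passed after adjustment. With 8 libraries against 8, 462 genes (3.44%) had more peaks in 786-O and 257 (1.92%) more in RPTEC at an adjusted p under 0.05 by the exact permutation test, and the peak numbers did not overlap for 0.924% and 0.946% of genes. Of the 9 genes, 5 were higher in 786-O, 3 in RPTEC and 1 equal, with a median difference of 0.125 peaks against 0.25 over all 13420 genes. The largest differences were those of NFS1 and ALAD, each at 1.38 ± 0.916 peaks in 786-O and 0.5 ± 0.756 in RPTEC (SD, n = 8 per cell line; p = 0.102 for NFS1 and 0.103 for ALAD by the exact permutation test, adjusted p = 0.391 for both). NFS1 ranged from 0 to 3 in 786-O and from 0 to 2 in RPTEC, and ALAD from 0 to 2 in both. In bases covered, NFS1 differed by 421 bp (exact permutation test, p = 0.0241, adjusted p = 0.114) and ALAD by 418 bp (exact permutation test, p = 0.0438, adjusted p = 0.163), on a scale where 28.1% of all 13420 genes had an unadjusted p under 0.05. GLRX5 was at 1.13 ± 0.641 and 1.38 ± 0.744 (exact permutation test, p = 0.717). The labels do not say whether the cell lines were cultured and processed together, so such differences cannot be told apart from cell line in this comparison.

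The other genes of iron-sulfur and heme metabolism were taken as a list of 55 in 5 groups. In 786-O, 48 of them were tested: 22 had more peaks in SETD2KO, 13 fewer and 13 equal, with a median difference of 0, as over all genes. By group the median difference was 0.25 for mitochondrial iron-sulfur assembly (11 tested), 0 for cytosolic assembly (9) and for heme synthesis (12), 0.875 for heme transport and breakdown (8), and 0.5 for iron supply and control (8). In RPTEC, 14 of 48 were higher in SETD2KO and 27 lower, with a median of −0.25, as over all genes there. By group the RPTEC medians were −0.5 for mitochondrial assembly, −0.25 for cytosolic assembly and for heme synthesis, −0.375 for heme transport and breakdown, and 0 for iron supply and control. None of the 48 passed after adjustment in either cell line, where no gene could pass unless most genes reached the smallest p of 0.0286.

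BLVRB, a biliverdin reductase of the heme transport and breakdown group, was the 1 gene of the list (2.08% of 48) whose 786-O groups did not overlap. That share is near the 1.52% of all genes that were higher in SETD2KO in this way. It had 3.25 ± 0.5 peaks in SETD2KO and 1.75 ± 0.5 in SETD2-expressing libraries (SD, n = 4 per group; p = 0.0286 by the exact permutation test, adjusted p = 1). In RPTEC its means were 0.75 ± 0.5 and 0.25 ± 0.5 (exact permutation test, p = 0.486). BLVRB was also the 1 gene of the 52 tested that differed between the cell lines after adjustment, with 2.5 ± 0.926 peaks in 786-O and 0.5 ± 0.535 in RPTEC (SD, n = 8 per cell line; adjusted p = 0.0252 by the exact permutation test). That is 1 of 52 genes, where 3.44% of all genes passed as higher in 786-O and 1.92% as higher in RPTEC. Of the 52, 35 were higher in 786-O and 14 in RPTEC, with a median difference of 0.25, equal to that over all genes.

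**Figure D4:**
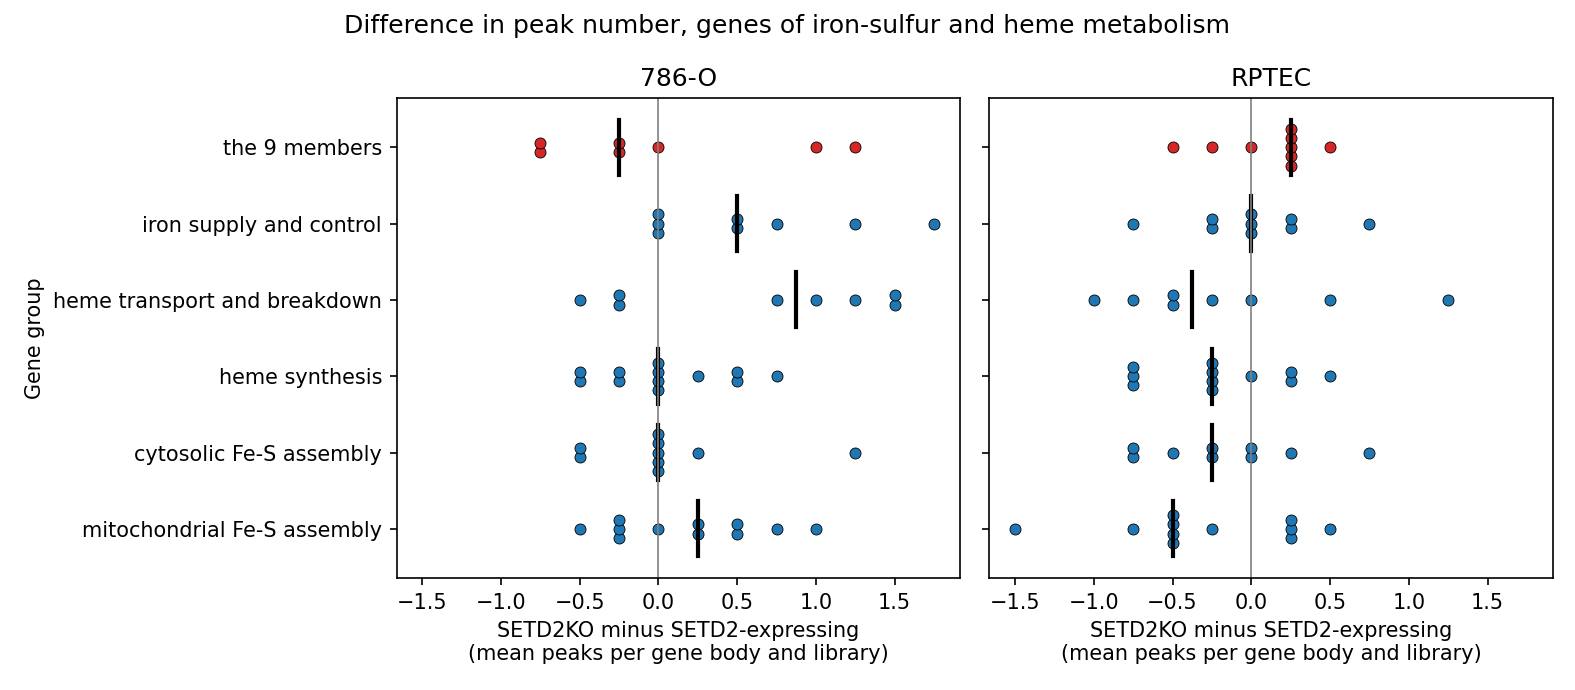
Difference in mean number of peaks per gene body and library, SETD2KO minus SETD2-expressing (x axis), for the 9 genes (red) and the 5 groups of the list of 55 (blue), 1 point per tested gene and a vertical bar at the median, in 786-O and RPTEC. The points of all groups lie on both sides of 0 except for iron supply and control in 786-O, and the 9 genes have medians of −0.25 and 0.25.

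Among 9723 genes with a peak in at least 8 libraries, the bases covered by peaks over the 16 libraries were most like those of ISCA1 for ZNF37A (Pearson r = 0.81), PRDX6 (r = 0.78) and TPP2 (r = 0.78). For ALAD they were HS6ST1 (r = 0.91), WNK4 (r = 0.88) and BCL7B (r = 0.88). None of these 6 genes lies on chromosome 9 or in the list of 55. The libraries share list length and cell line in every such pair, and the genes were picked from all 9723 for their likeness, so the coefficients are a description only.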

How the data were processed

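Per the labels and methods, the authors used STAR for alignment, HTSeq 2.0.3 for quantification with spike-in scaling to bacterial RNA, and MACS2 2.2.9.1 to find peaks in each IP library against its Input. The deposited peak lists hold positions on hg38, a whole-number score of unstated scale and other values such as the summit offset. The remaining peak columns are 0 throughout and were not used, and Input libraries were not analysed here. Depth is unknown.

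Peaks were assigned to RefSeq gene bodies (GRCh38.p14) by an overlap of at least 1 bp; all 9 genes matched, and 8 had a strand and start-site entry (not HMOX1). Mean peak numbers were compared by two-sided exact permutation tests over libraries (70, 12870 or, for the interaction, 4900 arrangements), Benjamini-Hochberg adjusted over all protein-coding genes with a peak. The authors' DESeq2 analysis needs read counts and was not repeated. The 9 genes and all lists were chosen with earlier results of these data known. Besides them, the genes named are list genes whose groups did not overlap, the 3 genes most like ISCA1 and ALAD, SETD2, cell type markers and genes that overlap or adjoin a described region or gene body.

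In simulated data, peak numbers were drawn from a Poisson distribution around the real means, scaled to list length. The 200 genes changed 4-fold were taken from those with a mean of at least 1 peak per library. The cell line comparison recovered 79.5% of them after adjustment. The 786-O and RPTEC SETD2KO comparisons recovered 0% after adjustment and 72.5% and 63.0% at an unadjusted p under 0.05. The 0% was fixed in advance, since 200 genes are too few for the smallest p of 0.0286 to pass. In 786-O, ISCA2, ISCU, ALAS1, FECH and HMOX1 had a mean under 1 peak, and in RPTEC all of the 9 genes but GLRX5. The recovered shares do not cover those genes. The main tests did not pair libraries by replicate number, and the labels do not say whether same-numbered libraries were prepared together. Versions were bedtools 2.31.1, Matplotlib 3.10.9, SciPy 1.17.1, pandas 2.3.3, NumPy 2.4.6 and Python 3.11.15.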

Additional observations from a re-analysis of the deposited data

Results flagged for a closer look

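Of 66 groups of 4 or 8 libraries checked, 19 had a library far from the others, each by 1 peak. Chance flags about 1 in 20 groups of continuous values, and numbers of 0 and 1 are flagged whenever 1 library differs. ISCA1 had 0 peaks in RPTEC SETD2KO-2 replicate 2 and in RPTEC SETD2KO-1R replicate 2, against 1 in the other libraries of each group. GLRX5 had 0 in 786-O SETD2KO-2 replicate 1, against 1 in the other SETD2KO libraries. The converse, 1 peak where the others of the group had 0, was seen for ISCA2 in 786-O SETD2KO-1 replicate 2 and RPTEC SETD2KO-1R replicate 2, for NFS1 in RPTEC SETD2KO-1 replicate 2, for ALAD in RPTEC SETD2KO-1R replicate 2, and for HMOX1 in 786-O SETD2KO-2 replicate 1 and 786-O SETD2KO-1R replicate 2. It also held for ISCU in RPTEC WT replicate 1, for ALAS1 in RPTEC SETD2KO-1 replicate 1, for FECH in 786-O WT replicate 1, and for FECH and HMOX1 in RPTEC SETD2KO-1 replicate 2, each against both the 4 libraries of its status and all 8 of its cell line.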

How the results depend on the processing

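Over 549 values of the 9 genes under the alternatives, 0 had an adjusted p under 0.05, 10 had an unadjusted exact permutation p under 0.05, and 8 changed sign. The number of all genes that passed between the cell lines was 719, and it was 129 with the upper 50% of each list by score, 430 with all lists cut to the shortest, 1526 with bases covered, 150 with calls by Fisher's exact test, and 648 to 929 with each library left out. It was 0 for SETD2KO in both cell lines under all alternatives, which says nothing about stability. No gene can pass after adjustment unless most genes reach the smallest p of 0.0286. With the replicate block, 1 clone alone or WT alone, no p under 0.05 can be reached. The number of the 9 genes with an unadjusted p under 0.05 was 0, and it was 1 in 786-O SETD2KO with bases covered (GLRX5; 5.22% of all genes), 1 between cell lines with all lists cut to the shortest (NFS1; 13.5% of all genes) and 2 with bases covered (NFS1 and ALAD; 28.1%). With each library left out it was 0 to 1 in 786-O, from 786-O WT replicate 2 (ALAD; 3.29% of all genes), and 0 to 1 between cell lines (18.8% to 21.7% of all genes where it was 1). One region, the second of ALAD, was called on the SETD2KO side of 786-O alone when at most 1 exception per side was allowed, a rule met by 4.44% of all regions in protein-coding genes, and 0 to 1 with each library left out, when SETD2KO-2 replicate 2 was left out (0.937% of regions). Differences changed sign for NFS1 in 786-O with the upper 50% (0.25) and SETD2KO-2 alone (0.5), and ranged from −0.833 to 0.167 with each library left out. They did so in RPTEC for ISCA2 with SETD2KO-1 alone (−0.25) and for GLRX5 against WT alone (−0.5), with −0.167 to 0.5 on leaving out libraries. Between cell lines GLRX5 was 0.125 with summits in place of peaks, and ISCA1 was −0.112 per 1000 peaks on the same chromosome, a scaling added after the data were seen. The cause of these changes was not tested. With a replicate block the counts were 0, 0 and 673, with ISCA1 and ALAD at p = 0.222 and 0.167 in 786-O by the exact permutation test. The correlations of same-numbered libraries were −0.115 to 0.263 in 786-O and −0.261 to 0.291 in RPTEC. They were weak and of both signs, which does not settle whether same-numbered libraries were prepared together.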
